A study of Mus musculus with 28 samples.

Results

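The sites described here are H3K4me3 summits that were listed in cells without Smchd1 and had no wild-type counterpart. A member is a summit of the null H3K4me3 list, on an assembled chromosome, with no summit of the wild-type H3K4me3 list within 5 kb. There were 954 members among 24201 null summits (3.94%). The reciprocal set, wild-type summits with no null summit within 5 kb, held 1118 of 23449 (4.77%), so summits without a counterpart were about as common in either direction. The members were chosen by their own H3K4me3 readout, so being listed and the scores are given below as descriptions only.

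The cells were neural stem cells (NSCs) derived from the brains of male C57BL/6 x FVB/N embryos at E14.5. The null cells were homozygous for the MommeD1 allele (Smchd1MommeD1/MommeD1), and the others were wild type. H3K4me3 was immunoprecipitated from 2 libraries per genotype, each list set against 1 whole cell extract of its own genotype. H3K27me3 had 2 libraries per genotype and MBD capture of methylated DNA had 3 per genotype, with the same kind of control. Ctcf was immunoprecipitated from 2 libraries of untransduced null cells, 2 of untransduced wild-type cells and 2 of wild-type cells carrying a non-silencing shRNA. All 3 Ctcf lists were set against Ctcf ChIP in wild-type cells that carried Ctcf shRNAs. Smchd1 was immunoprecipitated from 2 wild-type libraries against Smchd1 ChIP in 2 null libraries. The series held 28 libraries, and the labels do not say whether replicates came from separate embryos. Each list was called on all libraries of its group together, so a summit has 1 value per list, with no spread between libraries and no test between genotypes.

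H3K4me3 is laid down around active and poised transcription starts, most of all at CpG islands. Smchd1 is a chromatin protein needed for stable silencing of the inactive X chromosome, of some imprinted genes and of the clustered protocadherins. Ctcf is a zinc finger protein that anchors chromatin loops, and its binding at many sites is sensitive to CpG methylation. MBD capture pulls down methylated CpG-rich fragments. Each summit carries a score from the authors' peak caller, the −log10 of its p-value (or q-value), which ranks summits within 1 list.

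Of the fixed neural stem cell markers, 6 of 8 had a null H3K4me3 summit at a gene end and 7 of 8 a wild-type one. The astrocyte markers had 0 of 3 in either list, the neuronal markers 2 of 5 in either, and the epithelial markers 2 of 3 in null and 1 of 3 in wild-type cells. The microglia and blood markers had 1 of 4 in either list (Cd68), and the endothelial markers 1 of 3 in either (Kdr). The part that other cell types or depth had in the sites below was not tested. Depth per library is unknown from these lists, and a mark in more cells and more mark per cell cannot be told apart in them.

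The members within 1 kb of a RefSeq start, 176 of the 954 (18.4%), stood beside unlike sequence, shown here by 6 of them. The 250 bases before the RefSeq start (GRCm38.p6) are printed 5′ to 3′ on the gene's strand, with each CpG in capitals. Srrm4 and Hoxa5 had Smchd1 beside the member, Asic2 and 5730507C01Rik had Ctcf of the null list alone, and Mcf2 and Samd9l are CpG-poor starts.
Srrm4, chr5:116591818-116592067, minus strand: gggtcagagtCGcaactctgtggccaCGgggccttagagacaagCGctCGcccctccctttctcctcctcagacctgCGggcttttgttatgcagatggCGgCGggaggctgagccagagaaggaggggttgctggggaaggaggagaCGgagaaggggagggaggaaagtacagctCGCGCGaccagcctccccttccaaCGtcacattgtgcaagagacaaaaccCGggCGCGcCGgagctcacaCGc
Hoxa5, chr6:52204588-52204837, minus strand: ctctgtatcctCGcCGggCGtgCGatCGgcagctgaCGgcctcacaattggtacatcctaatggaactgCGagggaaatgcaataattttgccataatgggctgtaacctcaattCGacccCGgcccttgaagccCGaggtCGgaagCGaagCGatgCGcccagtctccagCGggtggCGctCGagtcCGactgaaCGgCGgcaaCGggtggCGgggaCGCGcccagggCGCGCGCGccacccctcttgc
Asic2, chr11:81152904-81153153, minus strand: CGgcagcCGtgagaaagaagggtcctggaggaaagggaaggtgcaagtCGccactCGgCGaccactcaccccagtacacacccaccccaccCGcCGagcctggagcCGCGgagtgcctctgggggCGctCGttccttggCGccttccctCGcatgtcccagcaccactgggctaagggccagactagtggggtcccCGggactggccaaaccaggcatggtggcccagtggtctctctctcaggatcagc
5730507C01Rik, chr12:18514260-18514509, plus strand: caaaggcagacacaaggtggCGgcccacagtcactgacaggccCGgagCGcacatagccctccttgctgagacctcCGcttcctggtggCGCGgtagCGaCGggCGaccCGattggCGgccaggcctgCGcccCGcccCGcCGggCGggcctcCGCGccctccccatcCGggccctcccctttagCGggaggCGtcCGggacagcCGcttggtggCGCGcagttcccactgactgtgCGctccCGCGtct
Mcf2, chrX:60147842-60148091, minus strand: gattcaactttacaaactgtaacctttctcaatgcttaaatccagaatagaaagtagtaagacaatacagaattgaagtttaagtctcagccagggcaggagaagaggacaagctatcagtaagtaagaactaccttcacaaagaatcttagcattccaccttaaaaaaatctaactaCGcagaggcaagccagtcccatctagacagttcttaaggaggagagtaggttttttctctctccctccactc
Samd9l, chr6:3399572-3399821, minus strand: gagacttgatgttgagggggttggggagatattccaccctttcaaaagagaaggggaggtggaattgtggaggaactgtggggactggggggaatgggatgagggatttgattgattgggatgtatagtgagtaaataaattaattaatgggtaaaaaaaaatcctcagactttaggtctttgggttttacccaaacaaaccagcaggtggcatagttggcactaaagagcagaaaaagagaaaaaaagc
The Srrm4 stretch held 17 CpGs, Hoxa5 and 5730507C01Rik 28 each and Asic2 14, against 1 at Mcf2 and 0 at Samd9l.

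The member scores were low. Their median was 6.41, with quartiles of 4.99 and 8.10 and a range of 3.37 to 42.0. Null summits with a wild-type counterpart, called shared below, had a median of 26.5, and the wild-type-only summits had 6.68. A score of at least 10 was reached by 126 members (13.2%), by 80.2% of shared summits and by 13.1% of wild-type-only summits. Scores repeated: the 954 members took 178 distinct values, and 45 members shared the value 4.86. Most members were far from any wild-type summit rather than just past the limit. The median distance was 46247 bp, with 92 members between 5 and 10 kb, 404 between 10 and 50 kb, 178 between 50 and 100 kb and 280 beyond 100 kb. The member closest to the limit lay 5007 bp from a wild-type summit, near Rasl11b (score 8.00), and the nearest summit outside the rule lay at 4983 bp, near Gm6958 (5.95).

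**Figure D1:**
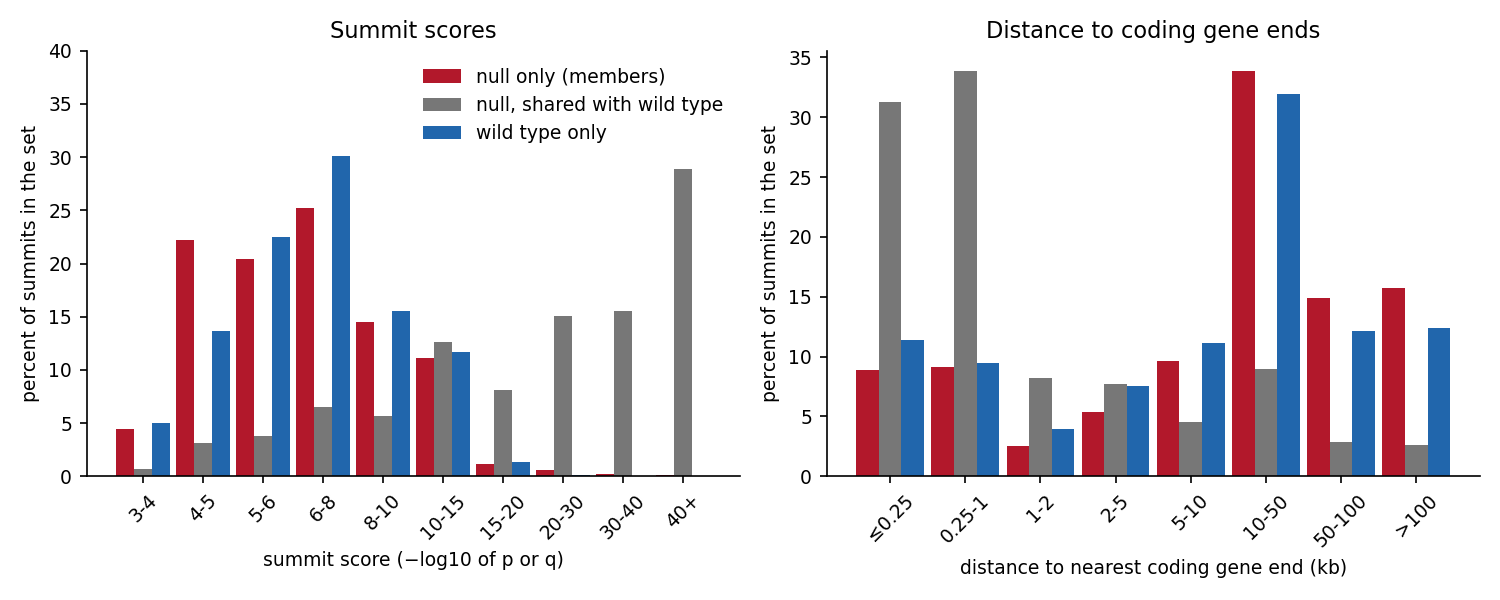
Percent of summits by score (left) and by distance in kb to the nearest end of a protein-coding gene (right), for the 954 members (red), the 23247 shared null summits (grey) and the 1118 wild-type-only summits (blue). Members and wild-type-only summits have similar low scores and lie mostly beyond 10 kb, while shared summits score higher and lie mostly within 1 kb.

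Few members marked a coding gene end. Within 2 kb of one lay 196 members (20.5%, exact 95% interval 18.0 to 23.3%), against 73.4% of shared summits (72.8 to 73.9%) and 24.8% of wild-type-only summits (22.3 to 27.4%). These intervals and those below cover counting error only and treat neighbouring summits as independent, which they are not. The median distance to a coding gene end was 20759 bp for members, 441 bp for shared and 14711 bp for wild-type-only summits. Inside a coding gene but over 2 kb from its ends lay 39.1% of members, and 40.4% were over 2 kb away and outside coding genes. The share at gene ends grew with the score: 14.6% of members under 5, 18.6% from 5 to 10 and 41.3% at 10 or more (32.6 to 50.4%). Shared summits at those scores had 45.7%, 49.8% and 79.4%.

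When any annotated gene was counted, 343 members (35.9%) lay within 2 kb of an end. The nearest end belonged to a coding gene for 190 (55.4%), to a long non-coding RNA (lncRNA) for 109 (31.8%), to a pseudogene for 17 and to a transcribed pseudogene for 14. For shared summits coding genes made up 84.7% and lncRNAs 11.9%, and for wild-type-only summits 61.1% and 31.7%. Of 176 members within 1 kb of a RefSeq start, 125 lay downstream of it. The median offset of all 176, counted as positive into the gene, was 146 bases, with quartiles of -77.3 and 355 bases. The shared summits near a start had a median of 144 bases, with quartiles of -199 and 256 bases. A second null summit within 5 kb accompanied 13.7% of members and 66.7% of shared summits.

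The starts beside members were poorer in CpG than those of shared summits. The ratio of observed to expected CpG in the 300-base RefSeq windows, which reach 50 bases past the start, had a median of 0.512 for 190 windows of 169 genes at members (quartiles 0.336 and 0.705). It was 0.787 for 13621 windows at shared summits, 0.499 for 272 windows at wild-type-only summits and 0.201 for 17060 windows with no H3K4me3 summit within 5 kb. A ratio above 0.6 was found in 36.3% of member windows and 77.4% of shared windows. The Asic2 window shown above had 0.500, near the member median, while Hoxa5 had 1.02, Srrm4 0.807, Mcf2 0.166 and Samd9l 0.0952. Members scoring at least 10 had a median of 0.488 and the others 0.519. No windows were on hand for chromosome 18.

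**Figure D2:**
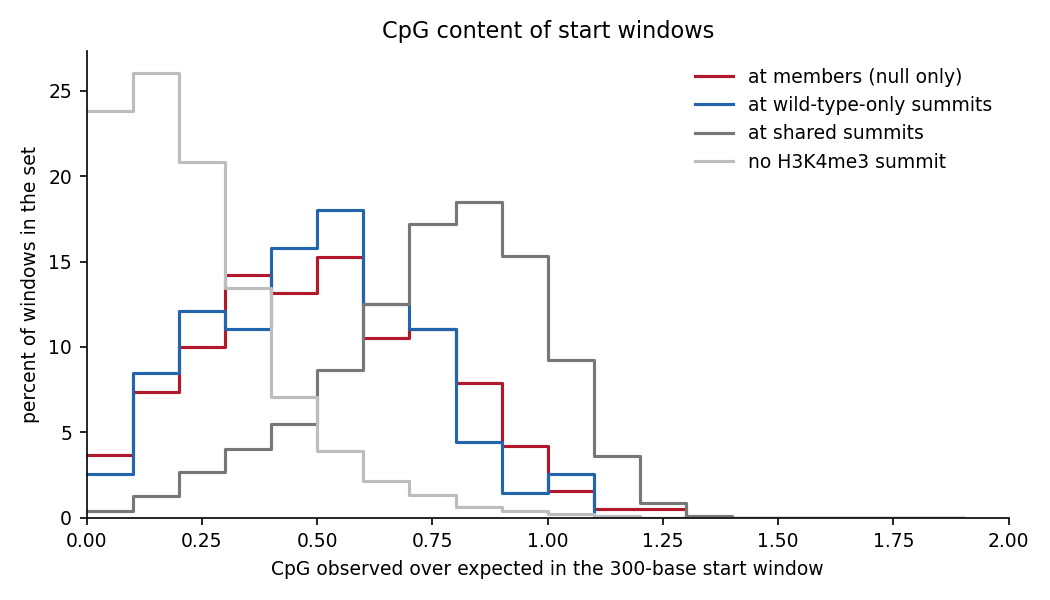
Distribution of the ratio of observed to expected CpG in 300-base start windows, as percent of windows, at members (red), at wild-type-only summits (blue), at shared summits (dark grey) and at starts without H3K4me3 (light grey). The member curve lies between the light and dark grey curves and beside the blue one, with medians of 0.512 and 0.499.

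A total of 170 coding genes, of 21883 tested (0.777%), had a member and no wild-type summit within 2 kb of an end. Most listed gene groups had none or few: 0 of 31 imprinted genes, 0 of 24 neural stem cell genes, 0 of 20 glial, 0 of 17 microglial and blood, 0 of 22 endothelial and mesenchymal, 0 of 36 germline, 0 of 24 cell cycle, 0 of 27 chromatin and 0 of 16 housekeeping genes. A gene with a wild-type summit at an end could not count. Such genes were 24 of 24 cell cycle, 24 of 27 chromatin and 15 of 16 housekeeping genes. They were also 21 of 24 neural stem cell and 22 of 31 imprinted genes, so the rule largely fixed these zeros. Of 48 neuron and synapse genes 1 counted, Srrm4. Of 74 ion channel and receptor genes there were 3, among them Gabrg3 (score 10.2), a subunit of the GABA-A receptor, and Oprk1 (5.89), the kappa opioid receptor. Of 48 neuronal transcription factors there were 3: Atoh1 (8.00 and 6.95), Tbr1 (9.08) and Pou4f1 (10.0), against 4 in the wild-type-only direction. The Tbr1 member was not at the start: it lay 10734 bases past the RefSeq start and 1073 bp beyond the far end of the gene. Of 88 developmental transcription factors there were 3: Gata6 (5.95), Tbx3 (6.98 and 5.95) and Irx6 (10.5 and 5.89), against 6 wild-type-only. The epithelial list had 1 of 18, Epcam (8.10), an adhesion molecule. Hoxa5 and Hoxa6 were 2 of 39 Hox genes and shared 1 summit (11.7). The clustered protocadherins had the most, with 10 of 14 alpha genes and 6 of 22 beta genes.

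The protocadherin alpha genes encode adhesion proteins of which single neurons use different ones, each from its own start. Pcdha1 to Pcdha10 each had a member, with scores of 36.1, 19.8, 12.7, 27.8, 17.4, 17.6, 15.6, 42.0, 14.8 and 22.6 in gene order. They formed the largest run of members, 75.0 kb long (18:36930247 to 18:37005286), with 10 null and 0 wild-type H3K4me3 summits. Every member of the run lay 34 to 364 bp from the lower annotated end of its gene.

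The other lists differed over the same run. It held 11 Ctcf summits of the null list and 0 of either wild-type list. A null Ctcf summit lay 135 to 536 bp from 8 of the 10 members. The exceptions were Pcdha7, at 5974 bp, and Pcdha10, at 7224 bp. The run held 18 MBD summits in the list named for null and 22 in the list named for wild type. At 8 of the 10 members an MBD summit of the list named for wild type lay within 345 bp, the closest at 9 bp (Pcdha1). At Pcdha3 and Pcdha10 it lay at 1748 and 1410 bp. In the list named for null, the nearest summit lay 1110 to 4748 bp away at all 10. The run held 0 Smchd1 summits, and the less strict Smchd1 list (threshold 5e-3) had 1 at 177 bp from the Pcdha7 member. The MBD labels contradict themselves: each genotype's samples point to the list that bears the other genotype's name. Neither MBD list is therefore given a genotype here.

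**Figure D3:**
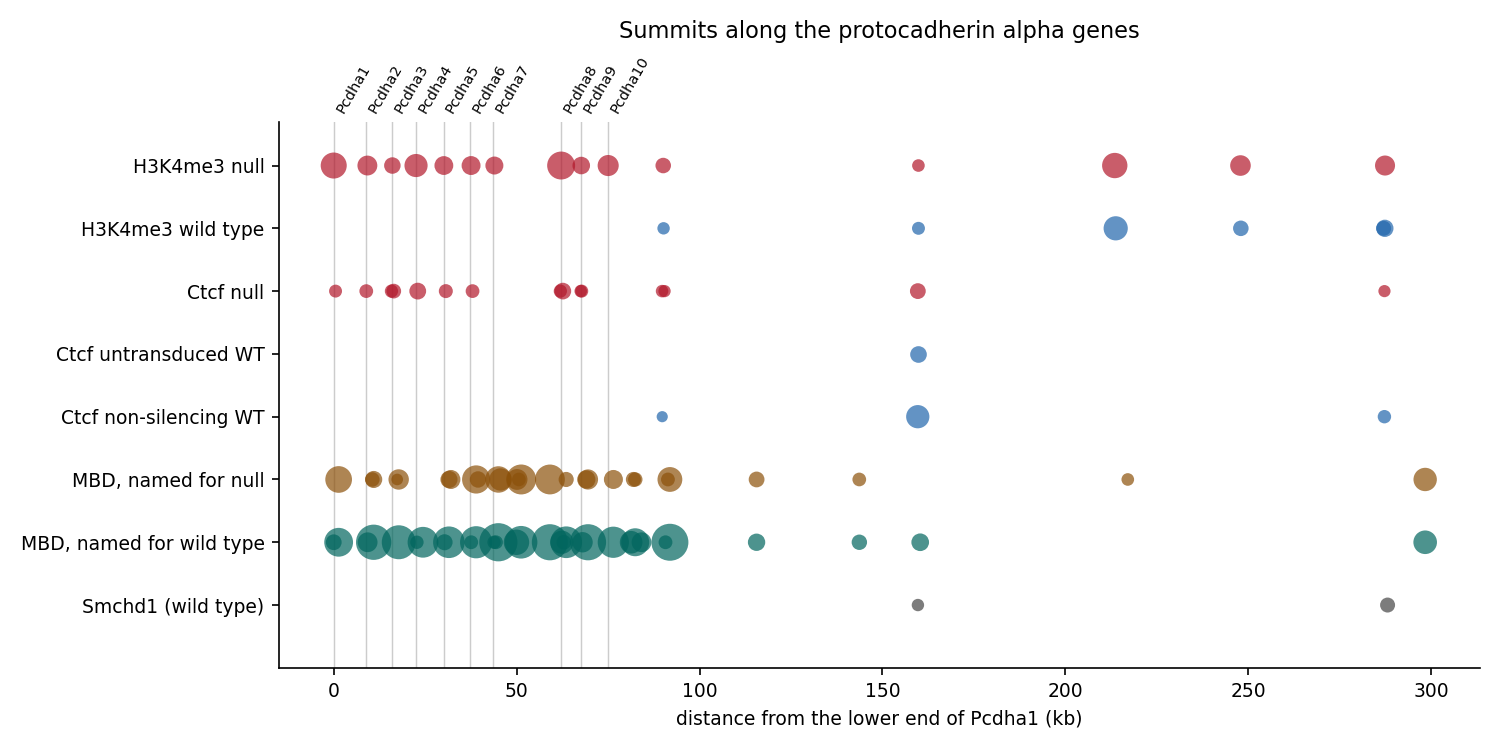
Summits of 8 lists along the protocadherin alpha genes, by distance in kb from the lower end of Pcdha1. Each dot is a summit, its area grows with its score, and grey lines mark the lower ends of Pcdha1 to Pcdha10. The null H3K4me3 row carries a dot at each line and the null Ctcf row at all but Pcdha7 and Pcdha10, where the wild-type H3K4me3 and Ctcf rows are empty.

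The beta and gamma genes were less uniform. Pcdhb2 had a member of score 20.7, with a non-silencing wild-type Ctcf summit at 171 bp and none of the null list within 77 kb. Pcdhb4 (8.10) and Pcdhb8 (8.00) had no Ctcf summit within 6 kb, while Pcdhb19 (6.68) and the summit between Pcdhb15 and Pcdhb16 (5.86) had null Ctcf at 185 and 165 bp. In the gamma cluster Pcdhga1, Pcdhga3 and Pcdhga7 had members of 6.98, 7.53 and 5.89, at 114, 69 and 15 bp from their lower ends. The nearest wild-type summits to these members lay 6157, 18672 and 7508 bp away. A wild-type summit stood near the upper end, which these genes share, so 0 of 21 gamma genes counted as null-only. That count does not say that the lower ends with members were marked in wild-type cells. In all, the clusters and their flanks (18:36910285 to 18:37861873) held 18 members among 38 null and 22 wild-type summits.

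Outside the protocadherins the highest member stood at Nlrp5-ps, a pseudogene on chromosome 7. It scored 33.3 at 7:14622892 and belonged to a run of 3 members within 0.908 kb, without Ctcf, Smchd1 or MBD summits in the run. Gm51464 followed, with a member of 25.4 at 7:48132037 and another of 14.3 at 7:48138292. Srrm4, a splicing factor of neural microexons, had 22.8 at 5:116591668, 149 bases into the gene. Kif2c, a microtubule-depolymerising kinesin, was the nearest coding gene to a member of 19.8 at 4:117189489, which had a Ctcf summit of each of the 3 lists within 207 bp. That member lay 6865 bp from Kif2c and 453 bp from the small nuclear RNA gene Gm25099. The other members among the 20 highest stood at Gm38699 (18.8), 2410124H12Rik (17.7), at 2:10737187 with Sfmbt2 as the nearest coding gene (17.5), near Zfp978 (17.1), and at 5730507C01Rik (17.0) and Mcf2 (16.2). Mcf2, a guanine nucleotide exchange factor gene on X, carried its member 279 bases past an internal start and 31622 bp from its annotated ends.

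Ctcf beside members depended on the list and on the score. A null Ctcf summit lay within 1 kb of 88 members (9.22%, 7.46 to 11.2%), against 10.3% of shared and 9.75% of wild-type-only summits. The untransduced wild-type list gave 5.56%, 8.11% and 7.33% for these sets, and the non-silencing wild-type list 12.8%, 14.1% and 16.5%. For the untransduced list the intervals of members (4.19 to 7.20%) and shared summits (7.77 to 8.47%) did not overlap. Within each score class they did. From 5 to 10, for example, they were 3.99 to 7.98% for members and 6.38 to 8.07% for shared summits. At a score of 10 or more, null Ctcf lay beside 23.0% of members (16.0 to 31.4%), 10.6% of shared and 17.7% of wild-type-only summits. The 29 members behind that share included most of the protocadherin alpha run, and the share without the run is not given here.

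The Ctcf lists differ in length, with 11920 summits in null, 8292 in untransduced wild-type and 20483 in non-silencing wild-type cells. Ctcf listed in null and in neither wild-type list was found beside 30 members (3.14%, 2.13 to 4.46%). Over all null H3K4me3 summits the share was 1.51%, and it was 1.44% (1.29 to 1.60%) of shared and 1.34% (0.753 to 2.20%) of wild-type-only summits. The protocadherin clusters held 10 of these 30, and without them 20 of 936 members remained (2.14%, 1.31 to 3.28%), an interval that overlaps that of the shared summits. Among members scoring at least 10 the share was 17 of 126 (13.5%, 8.06 to 20.7%), and outside the protocadherin clusters 9 of 115 (7.83%, 3.64 to 14.3%). Shared summits of that score had 1.48% and wild-type-only summits 1 of 147 (0.680%, 0.0172 to 3.73%). From 5 to 10 the share was 1.74% of members (0.839 to 3.18%) and 1.30% of shared summits (0.958 to 1.72%). Under 5 it was 1.18% (0.244 to 3.41%) and 1.23% (0.614 to 2.18%). In both of these classes the intervals overlap. The Ctcf summits beside the 30 members had scores of 4.47 to 15.9, with a median of 7.13, and lay at a median of 330 bp from the member.

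The 9 high-scoring ones outside the protocadherins fell at 7 places. Asic2, an acid-sensing ion channel, had 3 members at an internal start (13.0, 12.5 and 10.1), with null Ctcf at 382, 289 and 268 bp. At 5730507C01Rik the distance was 225 bp, at Tmem200c 171 bp, and at the second Gm51464 member 358 bp, where the Ctcf score was the highest of the 30 (15.9). The others were Ajap1, a junction-associated membrane protein (member 11.7, inside the gene and 2273 bp from its end, Ctcf at 437 bp), 1700030C10Rik (10.9, 774 bp) and the pseudogene Gm13243 (10.2, 271 bp). The reverse pattern, Ctcf in both wild-type lists and not in null, was found beside 13 members (1.36%), 1.56% of shared and 2.06% of wild-type-only summits.

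**Figure D4:**
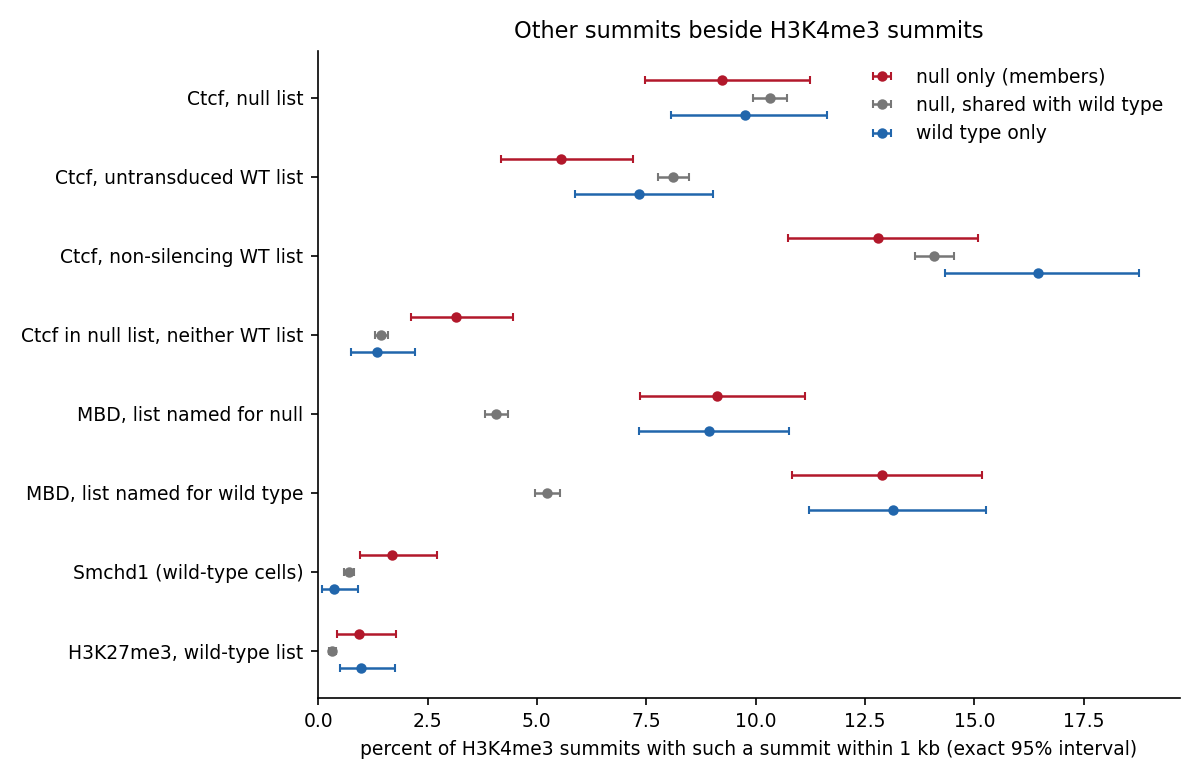
Percent of members (red), shared null summits (grey) and wild-type-only summits (blue) with a summit of each other list within 1 kb, with exact 95% intervals. The red and blue points lie together for both MBD lists, at 9.12 and 8.94% and at 12.9 and 13.1%. They lie apart for Smchd1 and for Ctcf listed in null alone, though for the latter their intervals overlap.

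MBD shares of members were above those of all shared summits, and how far above depended on the score. The list named for null had a summit within 1 kb of 87 members (9.12%, 7.37 to 11.1%), against 4.07% of shared and 8.94% of wild-type-only summits. The list named for wild type had 123 (12.9%, 10.8 to 15.2%), against 5.24% and 13.1%. From a score of 5 to 10, which held 574 members, the list named for null gave 8.54% of members (6.38 to 11.1%), 7.08% of shared and 8.27% of wild-type-only summits. The list named for wild type gave 11.8% (9.32 to 14.8%), 8.67% and 13.4% there. Under 5, the list named for null gave 11.4% of members and 6.69% of shared summits, and the other list 13.4% and 8.92%. At 10 or more, the list named for null gave 7.14% of members (3.32 to 13.1%) and 3.35% of shared summits. The list named for wild type gave 16.7% (10.6 to 24.3%) and 4.38% at that score. The 21 members behind the 16.7% included most of the protocadherin alpha run, and the share without the run is not given here. Wild-type-only shares under 5 and at 10 or more are not given here either. Over all scores, both lists had a summit beside 81 members.

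A summit of the list named for wild type alone lay beside 42 members (4.40%), against 1.44% of shared and 4.56% of wild-type-only summits. Of the 42, 10 lay in the protocadherin clusters, 5 on chromosome 12 between 20 and 25 Mb, and 9 also had Ctcf in the null list alone, 7 of them protocadherin alpha members. Tmem200c had both as well, with MBD at 874 bp and the other list's nearest summit at 9785 bp. Gm38699, Gm20472 and Gm38538 on chromosome 12 had the list named for wild type at 327, 324 and 1 bp, and the list named for null at 10879, 9341 and 6812 bp. The opposite, a summit of the list named for null alone, lay beside 6 members (0.629%). Among them were Syce2, a synaptonemal complex gene (9.08, MBD at 665 bp), and a member 2363 bp from Zic1 (8.00, MBD at 530 bp). Zic1 encodes a zinc finger factor of neural progenitors. The lncRNA Gm40546 was nearer to that member, at 1632 bp, and the list named for wild type had a summit at 1684 bp.

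Smchd1 itself lay within 1 kb of 16 members at 13 separate places (1.68%, 0.962 to 2.71%), against 163 shared summits (0.701%, 0.598 to 0.817%) and 4 wild-type-only summits (0.358%, 0.0976 to 0.914%). With a wild-type distance of 1 kb in place of 5 kb, the share of members was 0.896% (0.523 to 1.43%), an interval that overlaps that of the shared summits. With members within 1 kb of each other merged, the share was 1.443% (0.770 to 2.455%), which also overlaps that of the unmerged shared summits. Among members of score 10 or more it was 6 of 126 (4.76%, 1.77 to 10.1%), against 0.724% of shared and 0 of 147 wild-type-only summits, an exact upper bound of 2.48%. From 5 to 10 it was 1.39% of members (0.604 to 2.73%) and 0.675% of shared summits (0.438 to 0.996%). Under 5 it was 0.787% (0.0955 to 2.82%) and 0.334% (0.0690 to 0.974%). In both of these classes the intervals overlap. Of the 407 Smchd1 summits, 14 (3.44%) had a member within 1 kb and 4 (0.983%) a wild-type-only summit. The control of the Smchd1 list was ChIP in null cells, so the list reports where wild-type cells bound the protein.

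The first Gm51464 member had Smchd1 at 405 bp, Srrm4 at 141 bp, the member nearest to Sfmbt2 (a Polycomb-related gene 141934 bp away) at 290 bp, and Ralyl, an RNA-binding protein gene, at 42 bp (13.0). Hoxa5, a homeobox gene, had it at 309 bp, with wild-type H3K27me3 at 481 bp. The sixth, at 4:69195924 (11.3), was intergenic, with Smchd1 at 188 bp and Ctcf of all 3 lists within 214 bp. Lower members included both at Tbx3 (136 and 383 bp), all 3 of the Irx2 run (193 to 728 bp) and A830018L16Rik (5.95, 207 bp). A further 3 members lay at least 17264 bp from a coding gene end. Tbx3 and Irx2 encode transcription factors that pattern embryonic tissues. No MBD summit lay within 1 kb of the 16, and 4 had a Ctcf summit of any list.

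**Figure D5:**
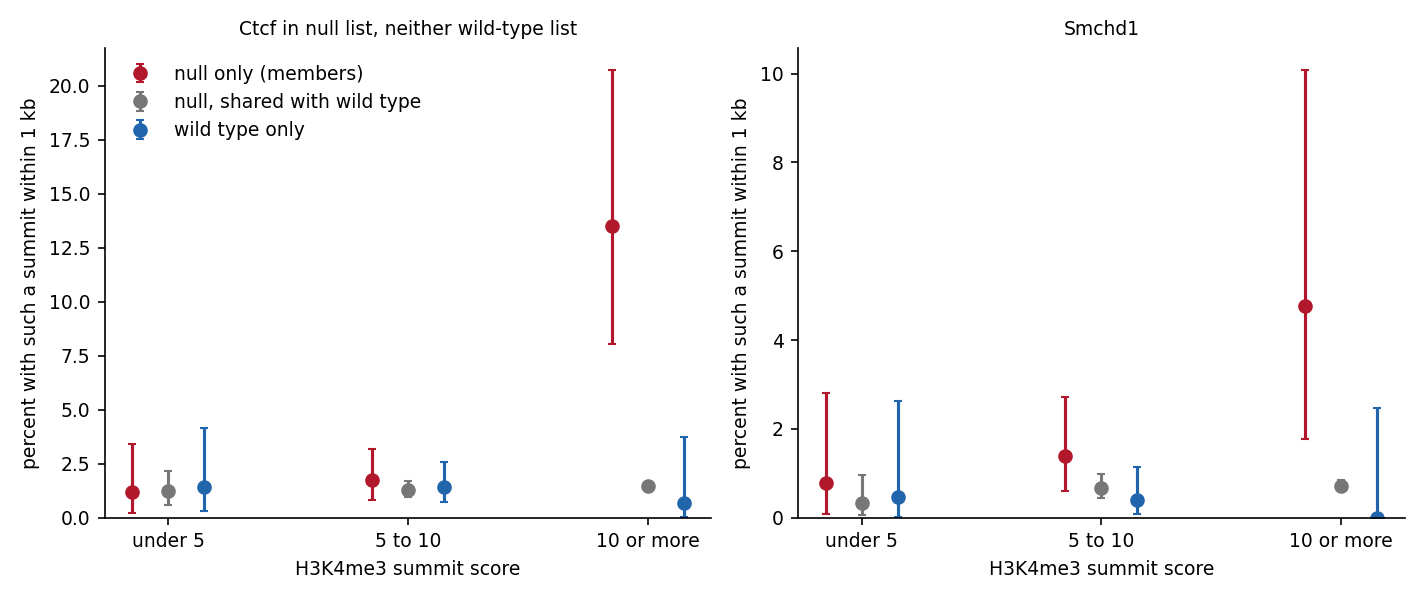
Percent of summits with Ctcf in the null list and neither wild-type list (left) or with Smchd1 (right) within 1 kb, by H3K4me3 score, with exact 95% intervals, for members (red), shared (grey) and wild-type-only summits (blue). The members of score 10 or more stand above the other sets, at 13.5% on the left and 4.76% on the right.

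H3K27me3, the Polycomb mark, was listed in wild-type cells within 1 kb of 9 members (0.943%, 0.432 to 1.78%), against 0.318% of shared and 0.984% of wild-type-only summits. The difference from shared summits changed with the score. From 5 to 10 the shares were 1.05% of members, 0.784% of shared and 1.18% of wild-type-only summits. Under 5 they were 0.394%, 1.23% and 0 of 209. At 10 or more they were 2 of 126 members (1.59%, 0.193 to 5.62%) and 0.182% of shared summits. The 9 members included those at Hoxa5, at Hs3st6 (11.2 and 5.95), a heparan sulfate sulfotransferase gene, and at the transcription factor genes Lbx1 (6.96), Bnc1 (5.86), Lhx5 (5.74), near Onecut1 (5.61) and Foxe1 (4.08). No Ctcf, MBD, Smchd1 or H3K27me3 summit was within 1 kb of 683 members (71.6%), against 78.3% of shared and 69.3% of wild-type-only summits.

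A few blocks of the genome held many members, though most of the 954 lay outside them. In blocks of 5 Mb, the one with the protocadherins held 23 members of 132 null summits. Chromosome 12 from 20 to 25 Mb held 14 of 46 (30.4%, 17.7 to 45.8%), with 0 of 33 wild-type summits lacking a null counterpart. Chromosome 4 from 145 to 150 Mb held 12 of 73 (16.4%, 8.79 to 26.95%), with 0 of 60. The chromosome 12 members lay at least 105680 bp from a wild-type summit, and 13 of the 14 stood within 2 kb of a gene end. They included Gm38699 (18.8 and 8.10), 9030624G23Rik and Gm20472 (11.7 each), 2410018L13Rik (11.3), 1700030C10Rik (10.9) and Gm38538 (9.27). On chromosome 4, 3 of the 12 lay within 2 kb of a coding gene end, at the zinc finger genes Zfp978 (10.1), Zfp982 (7.56) and Zfp991 (5.95). Another 4 had a pseudogene as the nearest gene end within 2 kb, for example Gm13243 (10.2), and the highest (17.1) lay 4346 bp from the lncRNA Gm46898. Neither block had Smchd1 within 1 kb of a member.

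Start windows in these blocks differed in how far they had near-copies. In a 300-base start window, the share of 20-mers that recur on either strand in a window more than 10 kb away was 79.4% at 2410018L13Rik, 61.9% at Gm38699 and 55.2% at Gm38538, against 11.7% at 1700030C10Rik, 7.83% at Zfp982 and 6.05% at Gm13205. It was 18.9% at 5730507C01Rik, 64.4% at Samd9l and 0 at Srrm4, Hoxa5, Asic2 and Mcf2. At least 50% of 20-mers recurred in 11 of 190 member windows (5.79%, 2.93 to 10.1%), 0.815% of shared windows, 4.04% of wild-type-only windows and 9.55% of windows without H3K4me3. Over all 32851 windows it was 5.46%, close to the share at members. The sources used here do not say how reads from near-copies were placed, so the members of these families are uncertain as to which copy carried the mark, and the part of read placement was not tested.

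The letters of a Ctcf core (CC, any 3 bases, AG, any 2 bases, then GGC) were searched on either strand in the 250 bases upstream of the start. They were found in 30 of 190 member windows (15.8%, 10.9 to 21.8%), 11.0% of shared, 11.8% of wild-type-only and 7.17% of all windows. Of member windows with any Ctcf summit within 1 kb, 9 of 29 held them, and of those without, 21 of 161. The Samd9l stretch shown above holds one, ccagcaggtggc, whose first base lies 50 bases upstream of the start. Samd9l, an interferon-induced antiviral gene, had a non-silencing Ctcf summit 164 bp from its member (12.5). The shorter CCCTC was in 70.0% of member and 72.2% of shared windows.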

How the data were processed

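Summit lists deposited by the authors were used: 11 lists of 1-bp MACS2 summits on mm10, each made from all libraries of its group against its control, per the labels. CASAVA 1.4 and MACS2 version 2 are named in the submitters' processing notes, which give no aligner. The deposited score is a −log10 p-value or −log10 q-value, and the sources used here do not say which. The lists were thresholded at 5e-4, except a second Smchd1 list at 5e-3. A difference in depth or control changes which summits pass, so absence from a list is not absence of the mark.

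Distances were taken to the nearest summit on the same chromosome, with pandas 2.3.3 and numpy 2.4.6 under Python 3.11.15. Intervals are exact 95% Clopper-Pearson intervals (scipy 1.17.1), and figures used matplotlib 3.10.9. Distances equalled a brute-force search in simulated lists. Gene ends (49939 genes, 21883 coding) and the 300-base start windows (32851, of 27025 genes, not complete and none on chromosome 18) came from RefSeq GRCm38.p6, the assembly of mm10. The gene table has no strand or exons, so a gene end is either end, and exon, intron and UTR are not given. The expected CpG count is the product of C and G counts over the window length.

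Named are the coding genes of the 20 highest members, listed genes with a member, the 10 highest with null-only Ctcf or with 1 MBD list, members with Smchd1 or H3K27me3, and runs of at least 3 members with gaps up to 100 kb; some genes that this rule names are not reported here, and others were chosen after their values were seen, as were the 5 Mb blocks and the 20-mer count. The members and gene lists were chosen with earlier results of these data known. Columns of per-sample values left unused numbered 0.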

Additional observations from a re-analysis of the deposited data

How the results depend on the processing

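No paired analysis was possible because each list pools the libraries of its group, and for the same reason no library was left out. Of 78 alternative values, 56 stayed within 1.5 times a count or within the interval of a share and 22 did not. Leaving out the clustered protocadherins, an alternative chosen after seeing the data, was among the first for all 7 results tried. For null-only Ctcf this was marginal: the share fell from 3.145% to 2.137%, just above the lower limit of 2.132%. Its interval then overlapped that of the shared summits. The null-only Pcdha genes numbered 10 under all 8 alternatives run for them.

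With a wild-type distance of 1 kb in place of 5 kb there were 1897 members, of which 34.2% lay at coding gene ends, 10.6% had the MBD list named for wild type and 0.896% Smchd1. With members of score 10 or more there were 126, and 49 null-only coding genes. Of them 41.3% lay at coding ends, 23.0% had null Ctcf, 13.5% null-only Ctcf, 7.14% the MBD list named for null, 16.7% the one named for wild type and 4.76% Smchd1. A gene-end window of 5 kb gave 25.9%. With a neighbour window of 250 bp the shares were 5.45% for null Ctcf, 1.05% for null-only Ctcf, 0.943% for the MBD list named for null, 2.41% for the one named for wild type and 0.839% for Smchd1. With 5 kb they were 14.3% for null Ctcf, 42.0% for the list named for null and 48.3% for the one named for wild type. The less strict Smchd1 list gave 3.25% of members (2.22 to 4.58%) and 2.07% of shared summits (1.89 to 2.26%), intervals that overlap. The cause of these shifts beyond the changed window or score was not tested. Depth per library is unknown, so what depth limits was not tested.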

Other observations

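Members were spread over all chromosomes but Y, which had 0 members of 9 null summits (upper limit 33.6%). Their share of null summits was highest on chromosomes 12 (6.78%) and 18 (6.73%), lowest on chromosome 15 (2.00%), and 3.59% on X. Besides the protocadherin alpha run there were 14 other runs, which made 15 runs with 56 members in all, against 17 runs with 54 summits in the wild-type-only direction. The second largest run held 6 members in Srgap2, a regulator of neuronal migration and spines, over 135 kb with scores of 3.57 to 5.95, and no summit of the Ctcf, MBD, Smchd1 or wild-type H3K4me3 lists. Vgll4, a transcription cofactor of the Hippo pathway, held 4 members with scores of 5.90 to 9.08. Runs of 3 lay at Asic2, Tmem200c, Atoh1, Irx2, Nfib and Abcc4, among others. Wild-type-only coding genes numbered 244. Among the listed genes they included Pax6, Fezf2, Isl1, Pou4f3, Ebf2, Tbx1, Tbx18, Sim1, Sim2, Alx4, Myrf, Magel2 and Slc6a3. On unplaced contigs, left out above, the null list had 10 summits, of which 1 had no wild-type counterpart within 5 kb, and the wild-type list 7, of which 0 lacked a null one.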
